A study of Homo sapiens with 12 samples.

Results

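Chromosomes 17 and 22 are small human chromosomes, and here they are described through their H3K27me3 ChIP-seq intervals in T24, a cell line established from a human bladder cancer. All consensus intervals on the pair were taken, 5179 on chromosome 17 and 2104 on chromosome 22, together 7283 of 273664. The intervals were chosen by chromosome name, and the pair was chosen with counts of these same libraries in view, so the ratios below are descriptions and no test is drawn from them. The cells had received 5 µM GSK-126, an inhibitor of the histone methyltransferase EZH2, for 72 h, 5 µM fenretinide, a synthetic retinoid, for 72 h, both at 5 µM for 72 h (combination), or DMSO (vehicle), whose duration the labels do not give. With 1 library for each condition, none of the differences could be checked in a replicate. Expression and input libraries were not analysed here, and so the cell type was not checked against marker genes.

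H3K27me3, trimethylation of lysine 27 on histone H3, is placed by EZH2 within Polycomb repressive complex 2 and is read by CBX proteins of Polycomb repressive complex 1. It is known for compact domains over silent developmental genes in CpG-rich, gene-dense chromatin and for wide, shallow domains over gene-poor chromatin. Chromosome 17 carries the HOXB cluster, the type I keratins and a CBX gene cluster, and chromosome 22 carries the immunoglobulin lambda and APOBEC3 regions.

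The label of gene-dense chromosomes was checked against RefSeq. Chromosome 17 held 1169 protein-coding genes, or 14.0 per Mb, which placed it at rank 2 of 23 after chromosome 19 at 24.8 per Mb. Chromosome 22 held 451, or 8.88 per Mb counted to the end of its last interval, at rank 5, and 11.2 per Mb counted from its first interval, at rank 3. Of the 1 Mb bins, 54.3% on chromosome 17 and 46.2% on chromosome 22 held more than 10 genes, against 17.2% on chromosomes other than 17, 19 and 22.

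The sequences below are examples of DNA at start sites under some of the large falls with GSK-126. They are RefSeq promoter windows (GRCh38.p14) from 250 bases before to 50 after the start, 5′ to 3′ on the gene's strand, and the capitals mark CG dinucleotides. Among named genes whose window lay inside an interval counted for that gene, some with large falls with GSK-126 are shown. CACNA1G, at a ratio of 0.177 over an interval shared with CACNA1G-AS1, is not shown, and neither is the window of FN3K, which rose. The limit to windows inside an interval was set after the values were seen. CACNA1G-AS1 (chr17:50562059-50562358, minus strand), SLC6A4 (chr17:30235648-30235947, minus strand), MIAT (chr22:26646179-26646478, plus strand) and LGALS2 (chr22:37580038-37580337, minus strand) fell.
CACNA1G-AS1: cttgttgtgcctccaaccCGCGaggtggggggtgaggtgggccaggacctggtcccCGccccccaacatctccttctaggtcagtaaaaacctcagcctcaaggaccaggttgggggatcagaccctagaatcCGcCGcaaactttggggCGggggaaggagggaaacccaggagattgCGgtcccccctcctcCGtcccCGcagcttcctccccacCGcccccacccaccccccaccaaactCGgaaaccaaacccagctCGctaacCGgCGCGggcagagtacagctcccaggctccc
SLC6A4: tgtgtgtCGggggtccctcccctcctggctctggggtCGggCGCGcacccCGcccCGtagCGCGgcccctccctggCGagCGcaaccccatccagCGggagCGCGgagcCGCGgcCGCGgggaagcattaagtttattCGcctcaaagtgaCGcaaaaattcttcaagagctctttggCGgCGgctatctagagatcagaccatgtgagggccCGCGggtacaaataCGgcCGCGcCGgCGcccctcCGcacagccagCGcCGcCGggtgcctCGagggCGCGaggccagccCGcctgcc
MIAT: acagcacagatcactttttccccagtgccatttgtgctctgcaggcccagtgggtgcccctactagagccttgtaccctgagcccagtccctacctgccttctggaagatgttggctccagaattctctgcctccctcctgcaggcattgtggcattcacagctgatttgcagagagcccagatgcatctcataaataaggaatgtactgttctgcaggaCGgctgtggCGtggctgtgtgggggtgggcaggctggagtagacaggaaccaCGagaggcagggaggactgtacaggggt
LGALS2: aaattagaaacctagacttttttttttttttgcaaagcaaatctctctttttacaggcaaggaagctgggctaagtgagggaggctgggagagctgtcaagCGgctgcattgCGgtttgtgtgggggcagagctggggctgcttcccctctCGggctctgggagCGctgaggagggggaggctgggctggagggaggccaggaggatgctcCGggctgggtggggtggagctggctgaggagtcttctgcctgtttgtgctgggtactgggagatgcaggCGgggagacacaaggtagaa
The windows of CACNA1G-AS1 and SLC6A4 held 15 and 36 CG dinucleotides, and those of MIAT and LGALS2 held 3 and 6. The windows shown, all of genes that fell, therefore ranged from CG-poor to CG-rich. That of FN3K, which rose and is not shown, held 47. The FN3K interval (chromosome 17, 82730582 to 82744163) had 270 fragments with GSK-126, 40 with fenretinide, 176 with the combination and 22 with vehicle. The interval over the CACNA1G-AS1 window (chromosome 17, 50559918 to 50569108) had 35, 95 and 45 fragments in the same treated libraries, against 210 with vehicle.

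Chromosomes 17 and 22 lost library share with GSK-126 and with the combination. Chromosome 17 took 2.24% of the interval fragments with GSK-126, 2.99% with fenretinide and 2.32% in the combination, against 3.37% with vehicle. Chromosome 22 took 1.43%, 1.77% and 1.39% with the same treatments, against 2.01% with vehicle. All ratios compare library shares, since the labels mention no spike-in, and they need not follow the amount of the mark. The libraries held 15812933 to 18928836 interval fragments, and the brackets below are 95% Clopper-Pearson intervals, which cover counting error only.

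On chromosome 17 the ratio of library shares over vehicle was 0.664 (0.661 to 0.667) with GSK-126, 0.888 (0.884 to 0.891) with fenretinide and 0.686 (0.684 to 0.689) in the combination. On chromosome 22 it was 0.710 (0.706 to 0.713) with GSK-126, 0.877 (0.872 to 0.881) with fenretinide and 0.688 (0.684 to 0.692) in the combination. Under background scaling, by the quietest intervals, the GSK-126 ratio was 0.391 on chromosome 17 and 0.417 on chromosome 22, and the combination ratio 0.390 and 0.391, so the brackets do not cover the choice of scaling. In all 3 comparisons the pair held the lowest 2 ranks of 23 chromosomes. Next in the GSK-126 order came chromosome 20 at 0.768, while chromosome 19, the densest in genes, stood at 1.05 and chromosome 21, of similar length to 22, at 1.41. Over the 23 chromosomes, gene density and the log2 ratio with GSK-126 had a Pearson r of -0.34 and a Spearman rho of -0.62, and without chromosome 19 the values were -0.73 and -0.73. These points share the same 4 libraries, so the coefficients are descriptions.

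**Figure D1:**
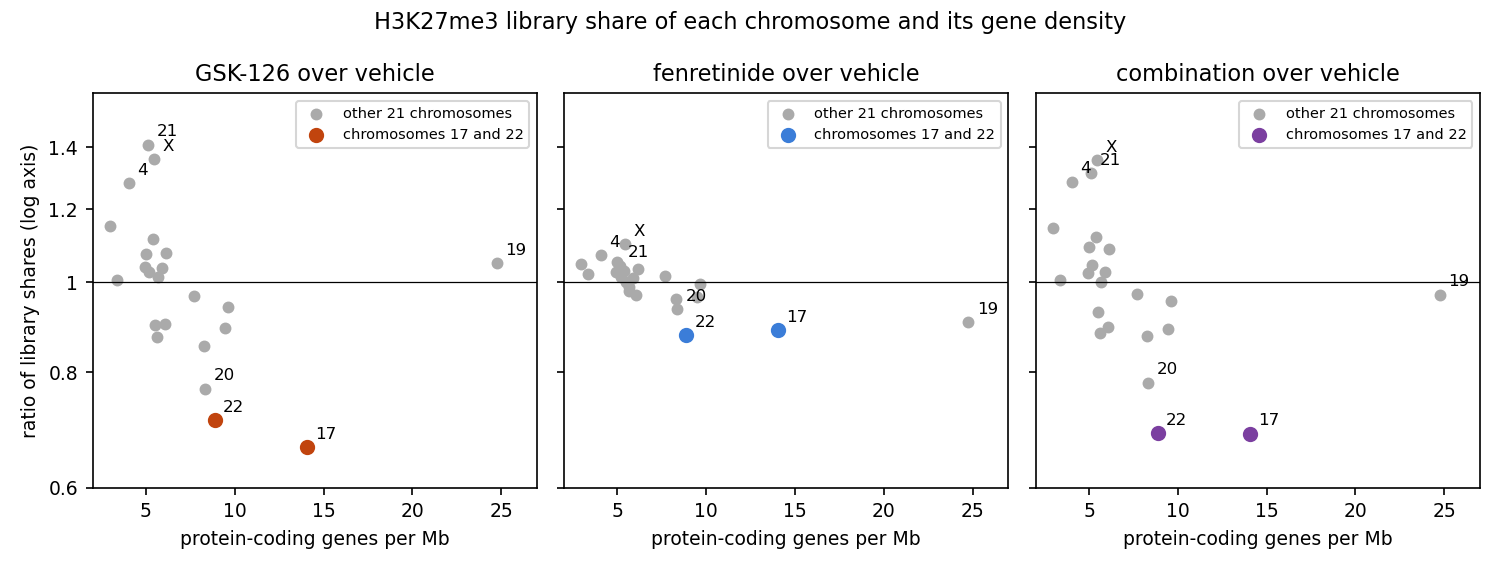
Ratio of library shares (log axis) of each of 23 chromosomes over vehicle against its protein-coding genes per Mb, in 1 panel per treated library. Chromosomes 17 and 22 are the coloured points and lie lowest in each panel, at 0.664 and 0.710 with GSK-126, while chromosome 19 lies at 1.05 despite 24.8 genes per Mb.

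The combination lay close to GSK-126 alone at this scale. Its share over that of GSK-126 was 1.03 (1.03 to 1.04) on chromosome 17 and 0.970 (0.964 to 0.975) on chromosome 22. On chromosome 17 the direction turned with the scaling, at 0.946 with DESeq2 size factors, 0.957 with TMM and 1.00 (just below 1) with background scaling. Over fenretinide it was 0.773 (0.770 to 0.776) on chromosome 17 and 0.785 (0.780 to 0.789) on chromosome 22, and under background scaling 0.483 and 0.490. These comparisons share libraries with those over vehicle.

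Interval by interval, the falls on the pair outnumbered the rises with GSK-126. Of 4668 intervals with at least 20 fragments in the compared libraries, 2115 were at or below a ratio of 0.5 and 668 at or above 2 with GSK-126 over vehicle. Among intervals of all chromosomes 21.6% were lower and 25.9% higher. Frequent falls were not particular to the pair. On chromosome 19, 44.3% were lower and 26.7% higher, and on chromosome 20, 35.1% and 14.4%, with median log2 ratios of -0.82 and -0.62. Background scaling left 330 higher on the pair, and the share of all intervals under that scaling is not given. By chromosome, 1477 of 3344 were lower on 17 and 638 of 1324 on 22. The remaining 1835 and 780 intervals had too few fragments to be called. The median log2 ratio was -0.88 on chromosome 17 and -1.01 on chromosome 22, beside -0.01 over all intervals.

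Fenretinide alone moved few intervals, 208 lower and 67 higher of 4910, beside 2.16% lower and 3.31% higher in the whole table, and 316 were lower with DESeq2 size factors. The combination over vehicle had 1837 lower and 543 higher of 4654, beside 15.8% and 24.1%, and under background scaling 3111 lower and 239 higher. All percentages here are from scaling by interval totals, and those under DESeq2 or background scaling are not given. The combination over GSK-126 had 88 lower and 95 higher of 4040, beside 1.82% and 2.48%. The combination over fenretinide had 1203 lower and 496 higher of 4614, beside 12.1% and 18.6%.

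Intervals with a promoter peak fell more often than the rest on both chromosomes. With GSK-126, 120 of 189 promoter intervals on chromosome 17 and 75 of 107 on chromosome 22 were lower, against 36.9% on the other chromosomes. Genic intervals without a promoter peak were lower in 46.5% of cases on 17 and 47.5% on 22, and intergenic ones in 40.3% and 45.3%, against 24.4% and 18.1% elsewhere. The higher shares of lower intervals were thus seen in all 3 classes.

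Peaks called by the authors in each library covered less of the pair after GSK-126. On chromosome 17, 4693 peaks covered 16.0 Mb with GSK-126, 5355 covered 22.5 Mb with fenretinide and 5764 covered 19.2 Mb with the combination, against 5067 and 23.4 Mb with vehicle. On chromosome 22, 2262 peaks covered 10.2 Mb with GSK-126, 2505 covered 12.9 Mb with fenretinide and 2708 covered 11.2 Mb with the combination, against 2219 and 13.5 Mb with vehicle. Over all chromosomes the covered length relative to vehicle was 0.996, 1.06 and 1.18 in the same order of treatments. GSK-126 peaks overlapped 57.2% of vehicle peaks on chromosome 17 and 62.5% on chromosome 22 by at least 1 bp, against 61.6% elsewhere.

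Along the chromosomes, most bins lost share with GSK-126, and the median ratio was lower in bins with more genes, with exceptions. Of 31 bins with up to 5 genes, 6 were called lower. On chromosomes other than 17, 19 and 22, 12 of 713 bins with 0 or 1 gene and 108 of 921 with 2 to 5 were called lower. On the pair, 4 of 62 bins with over 10 genes had a ratio at or above 1, and the same count elsewhere is not given. Of 120 bins of 1 Mb, 76 were lower (ratio at or below 0.667) and 13 higher (at or above 1.5) with GSK-126, where 23.1% and 26.4% of all bins were. Chromosome 17 had 47 lower and 6 higher of 81, and chromosome 22 had 29 lower and 7 higher of 39. Chromosome 19 had 29 lower and 18 higher of 57, and chromosome 20 had 26 lower and 7 higher of 64. With fenretinide 1 bin was lower and 0 higher, beside 0.277% and 1.32% of all bins. With the combination 74 were lower and 12 higher, beside 18% and 25%. The combination over GSK-126 stayed between 0.778 and 1.25 in the bins of chromosome 17 and between 0.719 and 1.22 in those of chromosome 22.

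The lowest bin on chromosome 17 was 79 to 80 Mb, which holds the Polycomb genes CBX2 and CBX8. It had 8753 fragments with GSK-126, 23274 with fenretinide and 9749 in the combination, against 29179 with vehicle, and its GSK-126 ratio was 0.318 (0.311 to 0.326). This bin alone took 8.69% of the share lost by the falling bins of chromosome 17 with GSK-126. The intervals counted for CBX2 and CBX8 held only 406 and 603 of its vehicle fragments. An interval of 226402 bp near ENGASE held 10870 of them, at a GSK-126 ratio of 0.296. Next lowest were 38 to 39 Mb, with 21 genes and a ratio of 0.320, and 48 to 49 Mb, with most of the HOXB cluster and 23 genes, at 0.343. In the 48 to 49 Mb bin of chromosome 17 the libraries held 1199 fragments with GSK-126, 3217 with fenretinide and 1471 in the combination, against 3703 with vehicle. Of these vehicle fragments the intervals counted for HOXB13 and PRAC1 held 266 and 368. GSK-126 and the combination were thus low together, and fenretinide stood between them and vehicle.

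The longest runs of neighbouring bins called lower were as follows, and other runs were shorter, down to 1 bin on chromosome 17. The runs were made of bins already called lower, so their low ratios follow from that choice. Run lengths were not compared with those of other chromosomes. From 73 to 82 Mb on chromosome 17 lay a run of 9 bins with 171 genes. It had 45741 fragments with GSK-126, 105583 with fenretinide and 49477 in the combination, against 121798 with vehicle. Its GSK-126 ratio was 0.398 (0.394 to 0.403). From 42 to 51 Mb another 9 bins with 198 genes gave 0.428 (0.420 to 0.435). On chromosome 22 the runs were 17 to 28 Mb, 11 bins with 133 genes at 0.495 (0.490 to 0.50), and 35 to 46 Mb, 11 bins with 179 genes at 0.441 (0.436 to 0.446). On chromosome 17, 66 of 81 bins lost share with GSK-126, and the 13 largest losses made up at least 50% of the share lost. On chromosome 22, 30 of 39 bins lost share, and the 8 largest losses made up at least 50%.

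The highest bin on chromosome 17 was 26 to 27 Mb, beside the centromere and without protein-coding genes. It had 9423 fragments with GSK-126, 1737 with fenretinide and 7258 in the combination, against 1180 with vehicle, a GSK-126 ratio of 8.47 (7.97 to 9.0). Bins 52 to 55 Mb, a block with 3 genes, had 30749, 20144 and 27959 fragments in the same treated libraries, against 14919 with vehicle, at 2.19 (2.14 to 2.23). The bin at 69 to 70 Mb, with 5 genes, stood at 2.74 (2.51 to 2.99). The 6 bins of chromosome 17 called higher held 0 to 5 genes each.

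**Figure D2:**
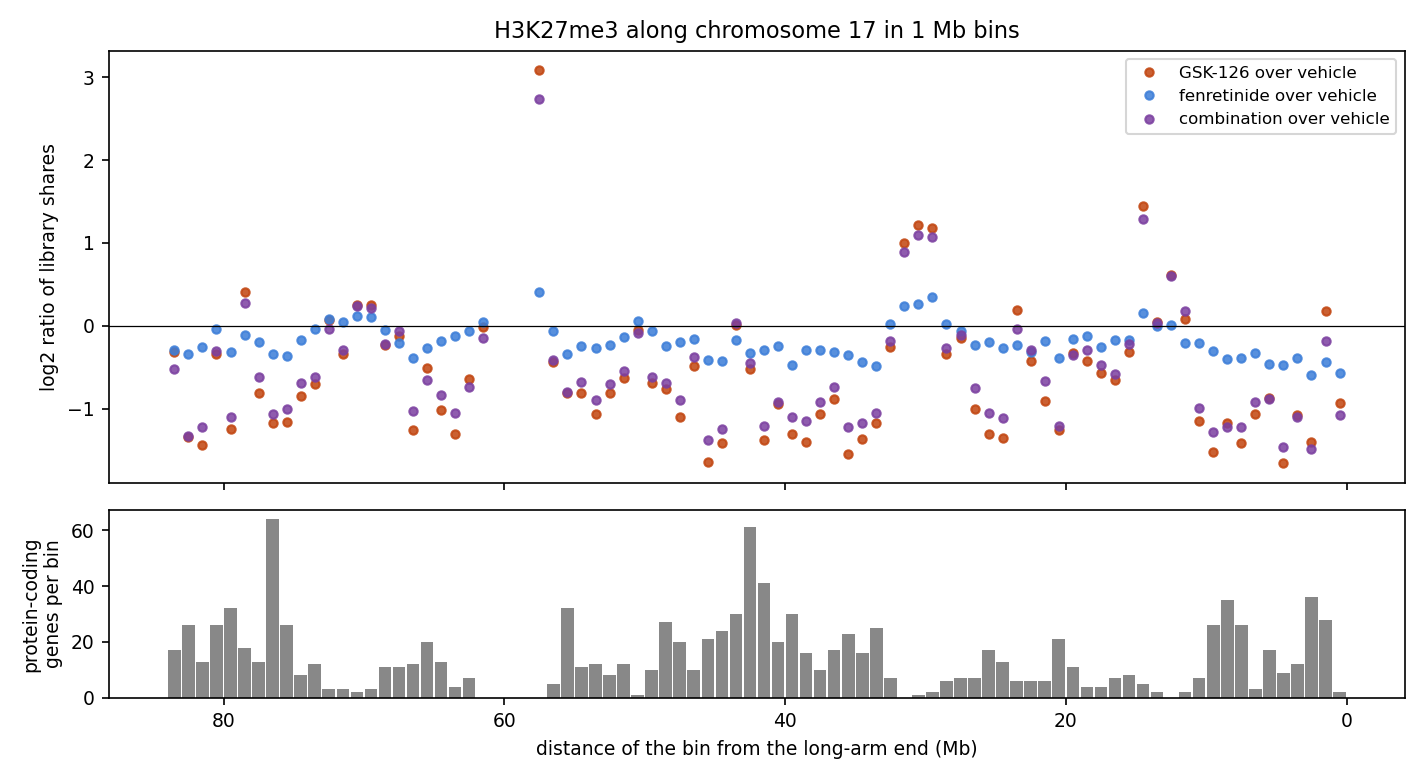
Log2 ratio of library shares over vehicle in 1 Mb bins of chromosome 17 (top) and protein-coding genes per bin (bottom) against the distance of the bin from the long-arm end in Mb. GSK-126 and combination points lie close together in most bins, and the highest point is the bin beside the centromere without protein-coding genes at a ratio of 8.47 with GSK-126.

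On chromosome 22 the highest bins were the stretch without protein-coding genes from 10 to 13 Mb, on the short-arm side. It held 25414 fragments with GSK-126, 12745 with fenretinide and 20057 in the combination, against 8739 with vehicle, at 3.08 (3.01 to 3.16). Reads of repeated sequence next to centromeres are hard to place, and how they were handled is not given in the sources used here. Without these bins and that at 26 to 27 Mb, a check added after the values were seen, the GSK-126 ratio was 0.648 on both chromosomes.

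The lowest bins on chromosome 22 were 24 to 25 Mb at 0.353 (0.340 to 0.367), 37 to 38 Mb at 0.364 (0.344 to 0.386) and 40 to 41 Mb at 0.368 (0.343 to 0.394). At 24 to 25 Mb the libraries held 3632 fragments with GSK-126, 9808 with fenretinide and 4326 in the combination, against 10901 with vehicle. The bin at 48 to 49 Mb held 1 gene and had 13959 fragments with GSK-126, 26244 with fenretinide and 12809 in the combination, against 28606 with vehicle, and its share fell by 0.0806 percentage points with GSK-126, the largest loss of any bin on chromosome 22. Most of it lay in 1 interval of 742598 bp (chromosome 22, 47986366 to 48728963) over FAM19A5 (TAFA5 in RefSeq), the gene of a secreted brain protein, with 10861, 19987 and 9817 fragments in the treated libraries, against 21774 with vehicle.

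**Figure D3:**
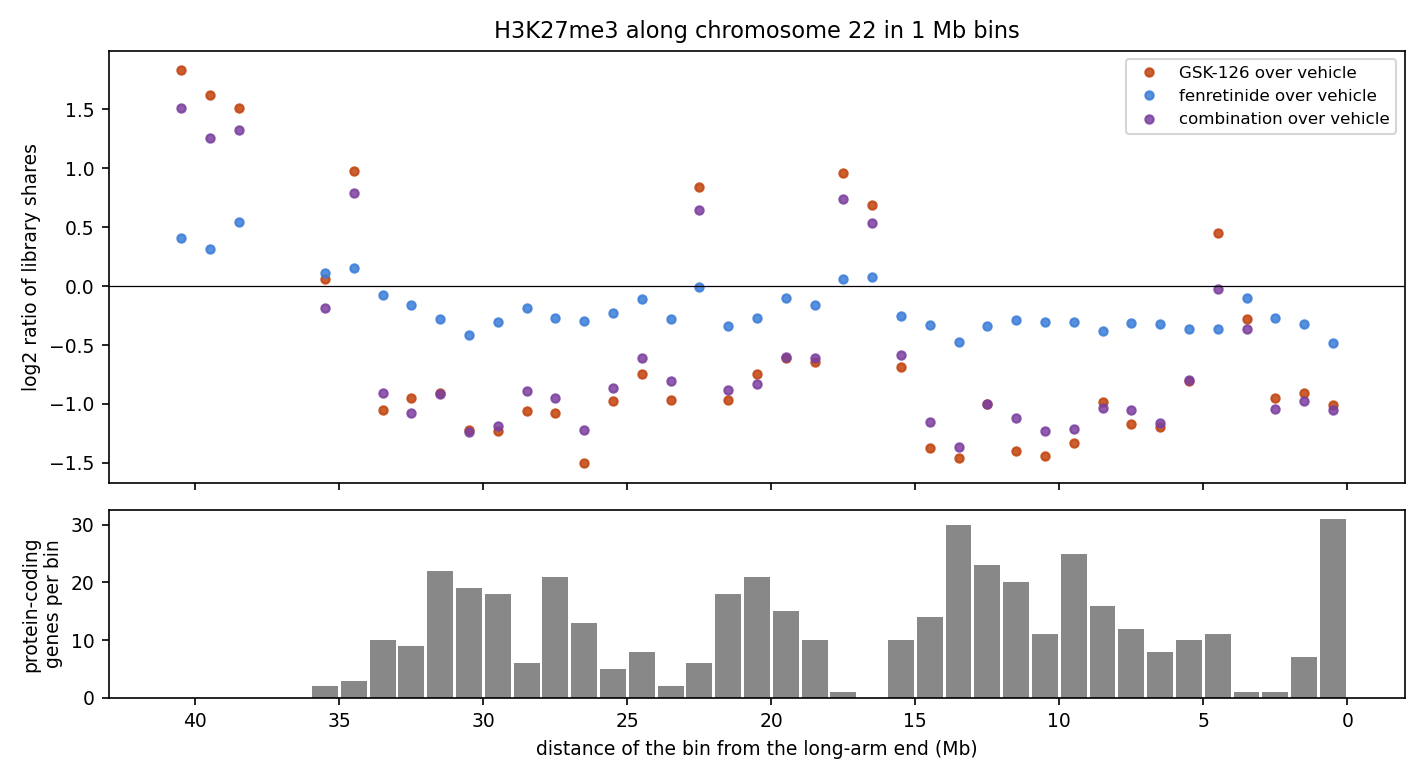
Log2 ratio of library shares over vehicle in 1 Mb bins of chromosome 22 (top) and protein-coding genes per bin (bottom) against the distance of the bin from the long-arm end in Mb. The bins without protein-coding genes farthest from the long-arm end rise with GSK-126, up to a ratio of 3.56, and most bins of the long arm lie below 0.

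Grouped by gene count, the bins of chromosome 17 had median log2 ratios with GSK-126 of 0.80 with 0 or 1 gene, -0.15 with 2 to 5, -0.66 with 6 to 10, -0.88 with 11 to 20 and -1.24 with over 20. On chromosome 22 the same classes had 0.96, -0.45, -0.86, -1.22 and -1.01. On chromosomes other than 17, 19 and 22 they had 0.99, 0.03, -0.36, -0.59 and -0.76. In each class the medians of chromosomes 17 and 22 were below that of these other chromosomes. The gap was smallest in the class with 0 or 1 gene on chromosome 22. Chromosome 19 had medians of 0.04 with 0 or 1 gene (5 bins), below those of the pair, and 2.01 with 6 to 10 (7 bins). With 11 to 20 genes it had -0.37 (4 bins) and with over 20 -0.77 (41 bins), above those of the pair. With fenretinide the medians on chromosome 17 ran from 0.15 to -0.35 and on chromosome 22 from 0.08 to -0.31 over the same classes, and elsewhere from 0.29 to -0.25. The Spearman rho of gene count and log2 ratio over bins was -0.59 with GSK-126, -0.66 with fenretinide and -0.62 in the combination on chromosome 17 (81 bins), and -0.66, -0.73 and -0.67 on chromosome 22 (39 bins). Bins of 1 chromosome share libraries and neighbours, so these are descriptions.

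**Figure D4:**
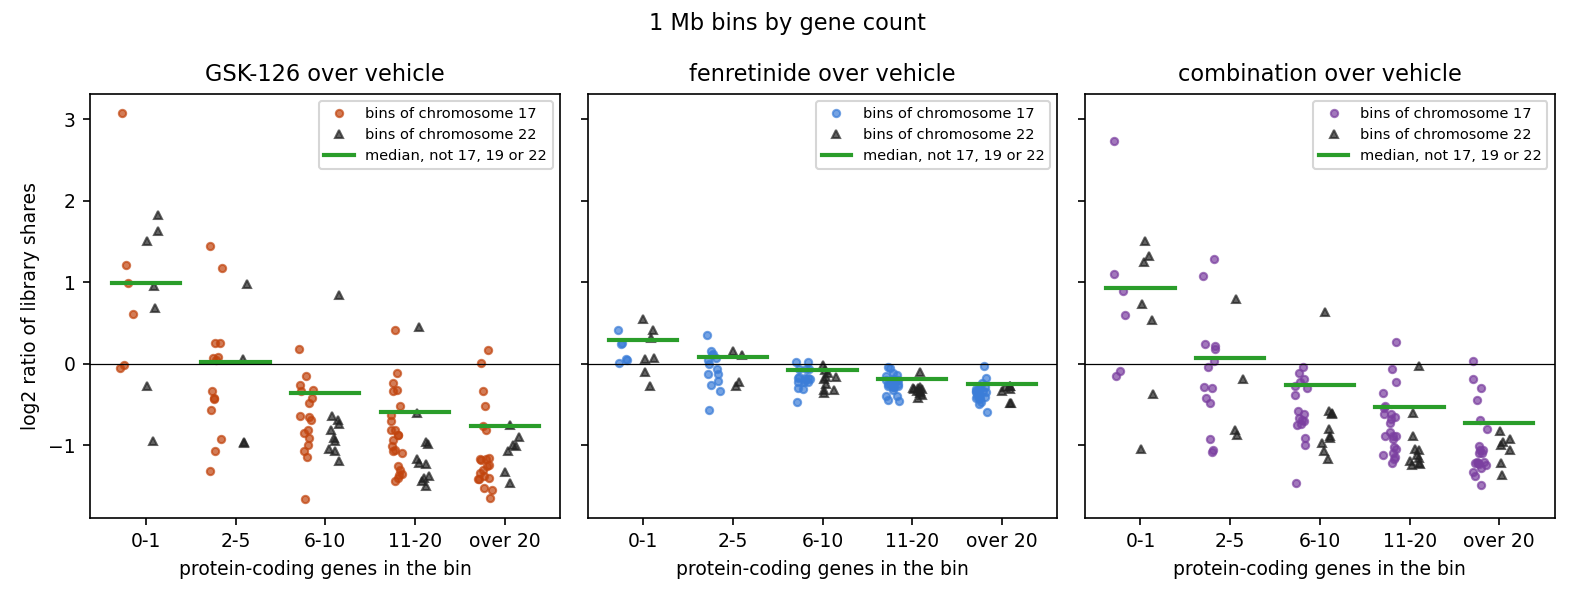
Log2 ratio of library shares over vehicle of each 1 Mb bin on chromosomes 17 (circles) and 22 (triangles), grouped by protein-coding genes in the bin, in 1 panel per treated library. Green lines are medians of bins on chromosomes other than 17, 19 and 22. With GSK-126 the medians of chromosomes 17 and 22 are 0.80 and 0.96 with 0 or 1 gene and -1.24 and -1.01 with over 20 genes, against -0.76 elsewhere, and single bins depart from them.

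Gene by gene, the library share fell near most measured genes of the pair with GSK-126. A gene's value is the sum of the intervals that overlap a peak centred within 10 kb of its start site. Of 1049 genes with at least 50 fragments, 671 were lower and 62 higher, beside 41.4% and 11.5% of all genes. The median log2 ratio was -1.27 on chromosome 17 and -1.30 on chromosome 22, beside -0.79 over all genes. With fenretinide 18 of 1077 were lower and 1 higher, beside 1.5% and 0.337%. That gene, MAP2K6, a stress kinase, had 60 fragments with fenretinide against 27 with vehicle, and it is named because the count is small. It was not called under any of the other 4 scalings. DESeq2, TMM and background scaling gave 34, 34 and 35 genes lower on the pair with fenretinide. The shares of all genes under those scalings are not given. With the combination 602 of 1053 were lower and 47 higher, beside 32.9% and 9.86%.

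The combination over GSK-126 had 8 lower and 2 higher of 943 genes, beside 0.501% and 0.443%. The combination over fenretinide had 359 lower and 54 higher of 1047, beside 18.7% and 9.43%. The genes higher in the combination than with GSK-126 were C17orf96 (EPOP in RefSeq), which encodes a partner of Polycomb repressive complex 2, and TEX2, named because the count is small. C17orf96 had 47 fragments with the combination and 21 with GSK-126, a ratio of 2.29 (1.34 to 4.03). TEX2 had 135 fragments with the combination and 66 with GSK-126, a ratio of 2.09 (1.55 to 2.85). With DESeq2 size factors and TMM the ratio of TEX2 was 1.91 and 1.94 and it was no longer called, while C17orf96 was called under every scaling tried.

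The gene lists below are read against all measured genes, of which 41.4% were lower and 11.5% higher with GSK-126, and against those on the pair, of which 64.0% were lower and 5.91% higher. Among Polycomb genes, CBX2, a chromodomain reader of the mark, had 78 fragments with GSK-126, 307 with fenretinide and 92 in the combination, against 406 with vehicle, and its GSK-126 ratio was 0.204 (0.158 to 0.260). CBX8, another such reader next to it, had 124, 334 and 121 fragments with the same treatments, against 603 with vehicle. Its ratios were 0.218 (0.178 to 0.265) with GSK-126, 0.501 (0.437 to 0.574) with fenretinide and 0.217 (0.177 to 0.265) in the combination. Of the 10 Polycomb genes listed on the pair, 6 were measured with GSK-126, 5 fell (83.3%, beside 64.0% on the pair) and 0 rose, with a median log2 ratio of -1.95 beside -0.79 over all genes. CBX7 did not pass, with 98 fragments with GSK-126, 125 with fenretinide and 92 in the combination, against 136 with vehicle. EZH1, a relative of EZH2, had 8, 27 and 5 fragments in the treated libraries, against 30 with vehicle. That was too few to be called with GSK-126 or the combination, and with fenretinide it did not pass, at 0.815, and SUZ12 had no interval within 10 kb.

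Of 31 developmental transcription factor genes listed, 18 were measured with GSK-126, 13 fell (72.2%, beside 64.0% on the pair) and 0 rose, with a median log2 ratio of -1.50. DLX4, a homeobox gene, had 186 fragments with GSK-126, 522 with fenretinide and 220 in the combination, against 804 with vehicle, a GSK-126 ratio of 0.245 (0.208 to 0.288). TEF, a PAR-family bZIP factor on chromosome 22, had 10, 52 and 23 fragments, against 73 with vehicle, at 0.145 (0.0669 to 0.283). NEUROD2, a neural bHLH factor, had 415, 1044 and 477 fragments, against 1615 with vehicle. ISX, an intestinal homeobox gene within a wide domain on chromosome 22, did not pass, with 9449, 9249 and 8825 fragments against 8273 with vehicle.

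In the HOXB cluster 2 genes were measured with GSK-126 and with the combination, and 3 with fenretinide. HOXB13, a posterior homeobox gene, had 106 fragments with GSK-126, 232 with fenretinide and 87 in the combination, against 266 with vehicle, at 0.423 (0.334 to 0.531) with GSK-126. PRAC1, beside it, had 116, 306 and 164 fragments, against 368 with vehicle. HOXB1 had 12, 28 and 7 fragments, against 25 with vehicle, enough with fenretinide alone, where it did not pass at 1.01. PRAC2 was under 50 fragments, and the other 12 of the 16 listed genes had no interval within 10 kb of their start. HOXB13 and PRAC1 fell with GSK-126 and with the combination, and neither passed with fenretinide. RARA, LHX1 and SOX10 had no interval even over their RefSeq span with 5 kb on either side. SOX9 had 1 interval there, with 10 fragments with GSK-126, 2 with fenretinide and 4 in the combination, against 7 with vehicle.

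Neuronal genes had the most measured members. Of 43 measured with GSK-126, 28 fell (65.1%, close to the 64.0% on the pair) and 1 rose, with a median log2 ratio of -1.51. CACNA1G, the pore of a T-type calcium channel, had 35 fragments with GSK-126, 95 with fenretinide and 45 in the combination, against 210 with vehicle. Its ratios were 0.177 (0.120 to 0.254) with GSK-126, 0.409 (0.318 to 0.524) with fenretinide and 0.232 (0.164 to 0.322) in the combination, so it also fell with fenretinide. Its single interval spans the antisense CACNA1G-AS1 start too, and unstranded ChIP counts cannot be assigned to either. SLC6A4, the serotonin transporter, had 60, 219 and 80 fragments, against 317 with vehicle, at 0.201 (0.150 to 0.265) with GSK-126.

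ADORA2A, an adenosine receptor on chromosome 22, had 23 fragments with GSK-126, 45 with fenretinide and 11 in the combination, against 95 with vehicle, and all 3 treated libraries were called lower. FAM19A5 (0.529) and SEZ6L (0.655) over wide intervals did not pass.

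Of 34 measured blood and immune genes, 26 fell (76.5%, beside 64.0% on the pair) and 0 rose with GSK-126, with a median log2 ratio of -1.29, close to the -1.27 and -1.30 of chromosomes 17 and 22. Many share an interval: CD300A, CD300C, CD300E, CD300LB, CD300LD and CD300LF lie in 1 of 284839 bp (chromosome 17, 74457999 to 74742837), with 4390 fragments with GSK-126, 10862 with fenretinide and 5077 in the combination, against 11363 with vehicle. MPO, the neutrophil peroxidase, and LPO, lactoperoxidase, also share 1, with 1083, 3348 and 1363 fragments, against 3952 with vehicle, at 0.291 (0.271 to 0.311) with GSK-126. On chromosome 22, 5 of 6 measured APOBEC3 genes, cytidine deaminases against viruses, fell. APOBEC3B was the exception, with 214, 403 and 233 fragments against 426 with vehicle. These counts are therefore not independent of each other.

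Of 32 measured signalling genes, 16 fell (50%, beside 41.4% over all genes and 64.0% on the pair) and 1 rose with GSK-126, with a median log2 ratio of -0.96. PYY, a gut hormone, had 11 fragments with GSK-126, 40 with fenretinide and 14 in the combination, against 75 with vehicle, at 0.156 (0.0745 to 0.294). PPY, the related pancreatic polypeptide, had 95, 330 and 97 fragments, against 417 with vehicle. TNFSF12, a TNF-family ligand, had 476 fragments with GSK-126, 182 with fenretinide and 364 in the combination, against 152 with vehicle, at 3.32 (2.76 to 4.01), although with fenretinide it did not pass. Of 16 measured CCL chemokine genes, 3 fell and 13 did not pass. Since 7 of these CCL genes lie in 1 interval, the 50% rests in part on shared intervals. The share of the signalling list without its CCL genes is not given. CCL1 stood at 0.499 with GSK-126, and CCL3L3 and CCL4L1, which have near-identical copies and share 1 interval, at 0.413. CCL3, CCL4, CCL14, CCL15, CCL16, CCL18 and CCL23 share another at 0.577, and CCL2, CCL7, CCL8 and CCL11, over overlapping sets of intervals, stood at 1.05, 1.12, 1.07 and 1.17. WNT7B did not pass either, with 58, 41 and 37 fragments in the treated libraries, against 46 with vehicle. PDGFB was under 50 fragments, with 3, 9 and 3 in the treated libraries, against 23 with vehicle. Its GSK-126 ratio by that count was 0.138 (0.0266 to 0.458), too few fragments to be called. Over its RefSeq span with 5 kb on either side, PDGFB had 45, 32 and 46 fragments, against 39 with vehicle. Its GSK-126 ratio there was 1.22 (0.779 to 1.93), so the 2 counts of PDGFB point in opposite directions. WNT7B over such a span had 4, 9 and 3 fragments, against 9 with vehicle, at 0.471 (0.106 to 1.69) with GSK-126.

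Of 11 measured bladder, epithelial and barrier genes, 10 fell (90.9%, beside 64.0% on the pair) and 0 rose with GSK-126, with a median log2 ratio of -1.77. TMPRSS6, a membrane serine protease, had 198 fragments with GSK-126, 663 with fenretinide and 244 in the combination, against 862 with vehicle, at 0.244 (0.208 to 0.285). UPK3A, a uroplakin of the urothelial surface, had 134, 316 and 140 fragments, against 439 with vehicle, at 0.324 (0.265 to 0.394). ITGB4, the integrin of hemidesmosomes, had 71, 261 and 87 fragments, against 311 with vehicle. JUP, plakoglobin of cell junctions, had 13, 52 and 9, against 76 with vehicle. KRT14 did not pass, with 164, 302 and 195 against 321 with vehicle.

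The type I keratin region was divided. Of 13 measured keratin and keratin-associated genes, 2 fell (15.4%, beside 64.0% on the pair), 5 rose (38.5%, beside 5.91%) and 6 did not pass with GSK-126, with a median log2 ratio of -0.13. KRT17, a keratin of basal and stressed epithelium, had 42 fragments with GSK-126, 104 with fenretinide and 44 in the combination, against 149 with vehicle, at 0.299 (0.207 to 0.424). Over its RefSeq span with 5 kb on either side, which takes in other intervals, KRT17 had 235, 333 and 199 fragments, against 379 with vehicle, and stood at 0.658 (0.556 to 0.776), short of the 2-fold rule. KRT25, a keratin of the hair follicle sheath, had 136, 40 and 130 fragments, against 25 with vehicle, at 5.77 (3.75 to 9.23). KRT33A, a hair keratin, had 50, 6 and 46 fragments, against 5 with vehicle. KRTAP4-6, a hair keratin-associated gene, had 55, 3 and 25 fragments, against 3 with vehicle, a ratio of 19.4 with a counting interval of 6.31 to 97.2. KRTAP genes have near-identical copies, so how reads were divided among them is uncertain.

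Genes of cell death and growth control were few. Of 9 measured with GSK-126, 6 fell (66.7%, close to the 64.0% on the pair) and 1 rose, with a median log2 ratio of -1.15. BIK, a BH3-only activator of apoptosis on chromosome 22, had 25 fragments with GSK-126, 109 with fenretinide and 16 in the combination, against 144 with vehicle. Its ratios were 0.184 (0.115 to 0.283) with GSK-126, 0.685 (0.529 to 0.885) with fenretinide and 0.120 (0.0670 to 0.202) in the combination, and the combination over GSK-126 had too few fragments to be called. RNF43, a ubiquitin ligase that dampens WNT signalling, had 640, 2183 and 911 fragments, against 2290 with vehicle. NLRP1, an inflammasome sensor, had 70 fragments with GSK-126, 19 with fenretinide and 74 in the combination, against 9 with vehicle, at 8.25 (4.11 to 18.8) with GSK-126. The fenretinide value of NLRP1 was too low in fragments to be called.

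Zinc-finger and housekeeping genes were divided as well. Of 9 measured ZNF genes, 3 fell (33.3%, beside 64.0% on the pair) and 3 rose (beside 5.91%), with a median log2 ratio of -0.91. ZNF594 had 431 fragments with GSK-126, 144 with fenretinide and 359 in the combination, against 110 with vehicle, at 4.16 (3.36 to 5.17), with fenretinide not passing. ZNF830 had 11 with GSK-126, 75 with fenretinide and 21 in the combination, against 70 with vehicle, again with no call for fenretinide. Of 5 measured housekeeping genes, 2 fell (40%) and 1 rose, with a median of -0.52. EIF4A3, a helicase of the exon junction complex, had 121, 35 and 98 fragments, against 37 with vehicle, at 3.47 (2.38 to 5.16), and RPL38, a ribosomal protein gene beside a wide domain, had 244, 927 and 284, against 1077.

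Among all genes of chromosome 17, the largest falls with GSK-126 by the counting bound included MMP28, a secreted metalloprotease, with 241 fragments with GSK-126, 921 with fenretinide and 250 in the combination, against 1137 with vehicle, at 0.225 (0.195 to 0.259). SRCIN1, an adaptor that inhibits SRC, had 151, 409 and 213 fragments, against 789 with vehicle, and it was lower with fenretinide too, at 0.469 (0.415 to 0.529). LINC00672 had 37, 189 and 64 fragments, against 237 with vehicle. Among genes with at least 100 fragments, the largest rises by that bound were FN3K, a kinase that repairs glycated proteins, at 13 (8.42 to 21.1), LOC101928974 at 11.1 (7.69 to 16.4), LOC101928375 at 6.49 (4.65 to 9.27) and LINC00910 at 6.33 (4.39 to 9.39). FN3K was at 1.65 (0.955 to 2.91) with fenretinide, an interval that includes 1.

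On chromosome 22, PRR5, a subunit of mTOR complex 2, had 81 fragments with GSK-126, 350 with fenretinide and 99 in the combination, against 492 with vehicle, at 0.175 (0.136 to 0.221). GGA1, a clathrin adaptor of the Golgi, had 59, 323 and 91, against 370 with vehicle, at 0.169 (0.126 to 0.223). LGALS2, a galectin gene next to it, had 102, 450 and 140, against 523 with vehicle, and the long noncoding RNA gene MIAT had 109, 455 and 148, against 575. TUG1, known as a long noncoding RNA gene, had 102 fragments with GSK-126, 14 with fenretinide and 37 in the combination, against 12 with vehicle, at 9.01 (4.94 to 18.0) with GSK-126. It was lower in the combination than with GSK-126, at 0.371 (0.247 to 0.545). LOC102723769, in the block beside the centromere, had 1781 fragments with GSK-126, 585 with fenretinide and 1192 in the combination, against 330 with vehicle, with no call for fenretinide.

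**Figure D5:**
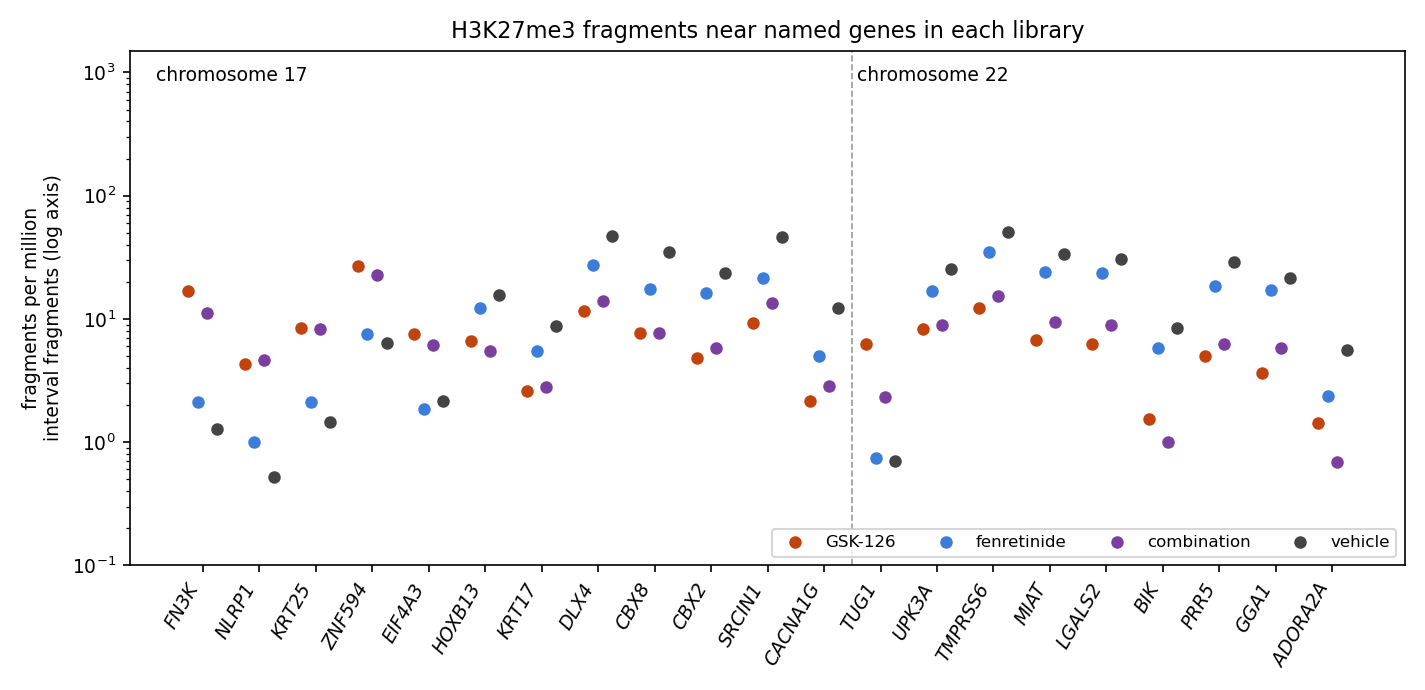
Fragments relative to the library's interval total (log axis) near 21 named genes in the GSK-126, fenretinide, combination and vehicle libraries, for chromosome 17 (left) and chromosome 22 (right). Vehicle is the highest point for the genes that fell, such as CBX2 at a GSK-126 ratio of 0.204, and fenretinide lies between GSK-126 and vehicle for them.

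The genes that fell with fenretinide were also among those low with GSK-126 in most cases named here. LINC00482 had 53 fragments with GSK-126, 107 with fenretinide and 32 in the combination, against 211 with vehicle. RP11-353N14.5, in the bin of CBX2 and CBX8, had 39, 96 and 45, against 190. AIFM3, a mitochondrial oxidoreductase relative on chromosome 22, was the exception, with 68, 52 and 52 fragments, against 98 with vehicle, and it passed with fenretinide only, at 0.480 (0.336 to 0.679). NFAM1, an immune receptor, had 50, 133 and 28 fragments, against 169 with vehicle, and was called lower with GSK-126 and the combination. The comparisons over vehicle share the vehicle library, so a value low or high in vehicle moves all of them.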

How the data were processed

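H3K27me3 ChIP-seq of T24 cells was used, with 1 library per condition (GSK-126, fenretinide, combination and vehicle). The deposited values were raw fragment counts per consensus interval, made with featureCounts 2.0.1 per the file headers (unstranded, paired, overlap of at least 0.2 of a fragment, fragments allowed in several intervals), on GRCh38. Per the submitters' processing notes, MACS2 2.1.0 called broad peaks in each library. HOMER assigned them to genes, per the file headers, and each deposited peak carries a score whose scale is not stated. The aligner and any control used in peak calling are not given in the sources used here.

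Fragments were summed by interval, gene, 1 Mb bin and chromosome, and divided by the library's interval total. The ratio of library shares was given a 95% Clopper-Pearson interval. A call needed a ratio of at least 2 or at most 0.5 (bins at least 1.5 or at most 0.667), an interval excluding 1, and at least 20 fragments for an interval, 50 for a gene and 200 for a bin in the compared libraries together. Log2 ratios used a pseudocount of 0.5. With 1 library per condition no test between conditions was made, and fragments without molecular identifiers are not independent molecules. The call code was run on simulated counts with counting error only. That checks the code and cannot show how far calls from 1 library per condition would repeat. The tools were scipy 1.17.1, pandas 2.3.3, numpy 2.4.6 and matplotlib 3.10.9 in Python 3.11.15, with DESeq2 1.42.0 and edgeR 4.0.16 in R 4.3.3 for scaling factors only.

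The members, the 11 gene lists and the rules were chosen with earlier results of these data known. Genes were named by rule: per treatment and chromosome the 5 largest rises and 5 largest falls with at least 100 fragments, ranked by the counting bound nearest to 1, up to 2 rises and 2 falls per list, and a set of genes named whatever their values. APOBEC3B, C17orf96, CBX7, the CCL genes, the CD300 genes, FAM19A5, HOXB1, ISX, JUP, KRT14, MAP2K6, NEUROD2, PRAC2, SEZ6L and TEX2, the runs of bins and the bin at 48 to 49 Mb were named after their values were seen. Of the genes with a value, 798 on chromosome 17 and 338 on chromosome 22 matched RefSeq. Alternatives were other scalings, minimums, thresholds, distances, bin sizes and overlaps. Input and RNA-seq libraries were not analysed here. Some results are not reported here.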

Additional observations from a re-analysis of the deposited data

How the results depend on the processing

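The falls of chromosomes 17 and 22 over vehicle kept their direction under the 4 other scalings and without the centromere-side bins. The ratio of the combination over GSK-126 on chromosome 17, 1.03, reversed to 0.946 with DESeq2 size factors, 0.957 with TMM and 1.00 (just below 1) with background scaling. Scaling by the quietest intervals (background scaling) moved the median of all intervals over vehicle on the log2 scale by -0.77 (GSK-126), -0.13 (fenretinide) and -0.81 (combination), DESeq2 size factors by at most -0.13 and TMM by at most -0.16, so counts of rises and falls are relative to the scaling. No paired analysis was possible because each condition had 1 library and the columns carry no replicate numbers. Leaving out a replicate was not possible for the same reason. The values below are those that changed beyond the limit set for each result, and the cause was not tested. They are for the pair alone, and the shares over all chromosomes under these settings are not given. Other minimums, distances and peak requirements also change how many intervals or genes are measured. Counts under those settings are not shares, and they can differ from the main counts through that number alone. Intervals with under 20 fragments, 1835 on chromosome 17 and 780 on chromosome 22 for GSK-126 over vehicle, could not be called at this depth.

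Under background scaling, GSK-126 over vehicle had 330 intervals higher, 36 genes higher, a ratio of 0.391 on chromosome 17, a ratio of 0.417 on chromosome 22, 4.17% of bins higher, a median log2 of -1.69 over intervals, a median log2 of -2.04 over genes and a median log2 of -1.60 over bins. Under background scaling, fenretinide over vehicle had 38 intervals higher, 329 intervals lower, 0 genes higher, 35 genes lower, a ratio of 0.809 on chromosome 17, a ratio of 0.799 on chromosome 22, 6.67% of bins lower, a median log2 of -0.31 over intervals, a median log2 of -0.42 over genes and a median log2 of -0.38 over bins. Under background scaling, the combination over vehicle had 239 intervals higher, 3111 intervals lower, 24 genes higher, a ratio of 0.390 on chromosome 17, a ratio of 0.391 on chromosome 22, 1.67% of bins higher, a median log2 of -1.60 over intervals, a median log2 of -1.91 over genes and a median log2 of -1.56 over bins. Under background scaling, the combination over GSK-126 had a ratio of 1.00 on chromosome 17 and a ratio of 0.938 on chromosome 22. Under background scaling, the combination over fenretinide had 199 intervals higher, 2655 intervals lower, 22 genes higher, 818 genes lower, a ratio of 0.483 on chromosome 17 and a ratio of 0.490 on chromosome 22. With DESeq2 size factors, fenretinide over vehicle had 42 intervals higher, 316 intervals lower, 0 genes higher, 34 genes lower, a ratio of 0.815 on chromosome 17, a ratio of 0.805 on chromosome 22, 5.83% of bins lower, a median log2 of -0.30 over intervals, a median log2 of -0.40 over genes and a median log2 of -0.37 over bins. With DESeq2 size factors, the combination over vehicle had a ratio of 0.627 on chromosome 17, a ratio of 0.628 on chromosome 22, a median log2 of -0.92 over intervals and a median log2 of -1.23 over genes. With DESeq2 size factors, the combination over GSK-126 had 45 intervals higher, 1 genes higher, a ratio of 0.946 on chromosome 17 and a ratio of 0.887 on chromosome 22. With DESeq2 size factors, the combination over fenretinide had a ratio of 0.769 on chromosome 17. With TMM, GSK-126 over vehicle had a ratio of 0.643 on chromosome 17, a ratio of 0.686 on chromosome 22, a median log2 of -0.97 over intervals and a median log2 of -1.32 over genes. With TMM, fenretinide over vehicle had 42 intervals higher, 0 genes higher, 34 genes lower, a ratio of 0.818 on chromosome 17, a ratio of 0.808 on chromosome 22, 5% of bins lower, a median log2 of -0.30 over intervals, a median log2 of -0.40 over genes and a median log2 of -0.36 over bins. With TMM, the combination over vehicle had a ratio of 0.615 on chromosome 17, a ratio of 0.616 on chromosome 22, a median log2 of -0.95 over intervals, a median log2 of -1.25 over genes and a median log2 of -0.90 over bins. With TMM, the combination over GSK-126 had 46 intervals higher, 1 genes higher, a ratio of 0.957 on chromosome 17 and a ratio of 0.898 on chromosome 22. With TMM, the combination over fenretinide had a ratio of 0.752 on chromosome 17 and a ratio of 0.763 on chromosome 22. Scaled to fragments outside the pair, GSK-126 over vehicle had a ratio of 0.652 on chromosome 17 and a ratio of 0.697 on chromosome 22. Scaled to fragments outside the pair, fenretinide over vehicle had 0 genes higher, a ratio of 0.882 on chromosome 17 and a ratio of 0.871 on chromosome 22. Scaled to fragments outside the pair, the combination over vehicle had a ratio of 0.674 on chromosome 17 and a ratio of 0.676 on chromosome 22. Scaled to fragments outside the pair, the combination over fenretinide had a ratio of 0.765 on chromosome 17 and a ratio of 0.776 on chromosome 22. Without the centromere-side bins, GSK-126 over vehicle had a ratio of 0.648 on chromosome 17 and a ratio of 0.648 on chromosome 22. Without the centromere-side bins, fenretinide over vehicle had a ratio of 0.865 on chromosome 22. Without the centromere-side bins, the combination over vehicle had a ratio of 0.674 on chromosome 17 and a ratio of 0.641 on chromosome 22. Without the centromere-side bins, the combination over GSK-126 had a ratio of 1.04 on chromosome 17 and a ratio of 0.990 on chromosome 22. Without the centromere-side bins, the combination over fenretinide had a ratio of 0.760 on chromosome 17 and a ratio of 0.741 on chromosome 22. With no minimum, GSK-126 over vehicle had 112 genes higher. With no minimum, fenretinide over vehicle had 132 intervals higher, 321 intervals lower, 8 genes higher and 40 genes lower. With no minimum, the combination over vehicle had 94 genes higher. With no minimum, the combination over GSK-126 had 171 intervals higher, 170 intervals lower, 18 genes higher and 21 genes lower. With no minimum, the combination over fenretinide had 93 genes higher. With at least 50 fragments, GSK-126 over vehicle had 424 intervals higher. With at least 50 fragments, fenretinide over vehicle had 12 intervals higher and 75 intervals lower. With at least 50 fragments, the combination over vehicle had 320 intervals higher. With at least 50 fragments, the combination over GSK-126 had 14 intervals higher and 21 intervals lower. With at least 50 fragments, the combination over fenretinide had 291 intervals higher and 790 intervals lower. At a ratio of 1.5, fenretinide over vehicle had 121 intervals higher, 495 intervals lower, 5 genes higher and 139 genes lower. At a ratio of 1.5, the combination over GSK-126 had 166 intervals higher, 157 intervals lower, 18 genes higher and 24 genes lower. At a ratio of 1.5, the combination over fenretinide had 677 genes lower. At a bin ratio of 2, GSK-126 over vehicle had 5.83% of bins higher and 38.3% of bins lower. At a bin ratio of 2, fenretinide over vehicle had 0% of bins lower. At a bin ratio of 2, the combination over vehicle had 5.83% of bins higher and 32.5% of bins lower. Where all 4 libraries had a peak, GSK-126 over vehicle had 222 intervals higher and 799 intervals lower. Only 1456 intervals of chromosome 17 and 612 of chromosome 22 had such peaks, so these counts come from fewer intervals. Where all 4 libraries had a peak, fenretinide over vehicle had 7 intervals higher and 16 intervals lower. Where all 4 libraries had a peak, the combination over vehicle had 170 intervals higher and 679 intervals lower. Where all 4 libraries had a peak, the combination over GSK-126 had 6 intervals higher and 6 intervals lower. Where all 4 libraries had a peak, the combination over fenretinide had 127 intervals higher and 411 intervals lower. Within 2 kb, GSK-126 over vehicle had 28 genes higher and 334 genes lower. Within 2 kb, fenretinide over vehicle had 0 genes higher. Within 2 kb, the combination over vehicle had 24 genes higher and 305 genes lower. Within 2 kb, the combination over GSK-126 had 1 genes lower. Within 2 kb, the combination over fenretinide had 24 genes higher and 171 genes lower. With no distance limit, GSK-126 over vehicle had 99 genes higher. With no distance limit, fenretinide over vehicle had 0 genes higher. With no distance limit, the combination over vehicle had 77 genes higher. With no distance limit, the combination over GSK-126 had 4 genes lower. In bins of 2 Mb, GSK-126 over vehicle had 6.45% of bins higher. In bins of 2 Mb, fenretinide over vehicle had 0% of bins lower. In bins of 2 Mb, the combination over vehicle had 4.84% of bins higher. In bins of 0.5 Mb, fenretinide over vehicle had 0.424% of bins higher. With an overlap of at least 50% of the peak, the share of vehicle peaks overlapped on chromosome 17 was 36.4% for GSK-126 and 64.1% for fenretinide and 46.2% for the combination. With an overlap of at least 50% of the peak, the share of vehicle peaks overlapped on chromosome 22 was 42.0% for GSK-126 and 64.7% for fenretinide and 48.5% for the combination. With peaks of score 20 or more, the share of vehicle peaks overlapped on chromosome 17 was 43.8% for GSK-126 and 76.7% for fenretinide and 45.0% for the combination. With peaks of score 20 or more, the share of vehicle peaks overlapped on chromosome 22 was 53.3% for GSK-126 and 54.4% for the combination.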
